A study of Mus musculus with 4 samples.

Results

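The genes described here are 40 genes of the liver's extracellular matrix and of the cells that make it: 13 collagens, 12 other matrix genes, 8 genes of matrix remodelling and 7 markers of hepatic stellate cells and related contractile or mesenchymal cells. They were chosen by name, and each was read by the probe set of highest mean log2 signal among those whose annotation gives that gene alone. Of the 40 genes, 39 had such a probe set, out of 18193 genes with a probe set of their own on the array; Fbn1 was not analysed here. The mean of 36 of them lay at or above a signal of 60.9, the median over all probe sets, and these were tested within a fit of 11749 genes; Lox, Mmp12 and Mmp13 lay below that filter. RNA came from slices of the livers of 4 male mice aged 9 months, fed chow in a specific-pathogen-free facility and given no treatment. All were F1 animals of reciprocal crosses between the AJ and B6 strains. The 2 AB6F1 males had AJ as dam and B6 as sire, and for the 2 B6AF1 males dam and sire were exchanged. Both crosses have the same mix of autosomes, while the X chromosome and mitochondria come from the dam's strain and the Y chromosome from the sire's. The study's subject is nonalcoholic fatty liver disease, and its labels set the crosses against each other; differences are AB6F1 minus B6AF1 on the log2 scale, with limma's standard error after the ± sign unless SD is named.

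Hepatic stellate cells lie between the hepatocytes and the sinusoidal endothelium and store retinoid in the resting state. When activated, for instance by TGF-beta or PDGF, they become contractile myofibroblasts that secrete fibrillar collagens, and their expansion is the main source of scar matrix in fatty liver disease and other chronic liver injury. Portal fibroblasts, smooth muscle cells and mesothelial cells make matrix too, whereas hepatocytes make most fibronectin and type XVIII collagen of the liver. The amount of matrix also depends on enzymes that process and cross-link collagen, on the matrix metalloproteinases that cut it and on the TIMP proteins that inhibit them.

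Most of these genes had higher values in AB6F1 livers. Col3a1 and Col1a2 rose, and these were the only 2 of 36 tested members past limma with Benjamini-Hochberg adjustment over all genes. Over all 11749 genes, 0.213% passed in either direction and 0.136% passed as higher. The members' median log2 difference was 0.78 against 0.02 over all genes tested, and 32 of 36 members were higher (29 when each array was centred on its median), against 53.5% of all genes. Both AB6F1 arrays lay above both B6AF1 arrays for 25 members and below them for 1, where the shares of all genes were 22.5% and 18.7%. At an unadjusted limma p under 0.05 there were 18 members, all higher, where 5.84% of all genes were higher and 3.88% lower at that level. Col1a1, Col5a2, Mgp and Thbs1 passed the filter through AB6F1 alone. Among the other 32, 28 were higher, 22 had separate arrays with AB6F1 above, 16 had an unadjusted p under 0.05, and the median was 0.68. In a bulk sample, more cells of a type and more RNA per cell cannot be told apart.

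Each array had a trimmed mean signal of 500 after scaling, and its median signal ran from 67.2 to 77.9. With 2 arrays against 2, an exact permutation test of a single gene cannot give a p below 0.333, so each test rests on limma's pooling of the spread over genes. Source identifiers of the mice fall in separate blocks for the crosses, so cross and handling cannot be told apart. Centring each array on its median moved the median of all genes from 0.02 to -0.11, and the members' median was 0.65 there.

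The fibrillar collagens I, III and V form the tensile fibrils of scar. Col3a1, which encodes the single chain of type III collagen, had AB6F1 signals of 3773 and 4532 against 1306 and 1066 for B6AF1. Its mean was 4152 ± 537 (SD, n = 2) against 1186 ± 170 (SD, n = 2), a log2 difference of 1.81 ± 0.16 or 3.50-fold (limma adjusted p = 0.00931). Col1a2, the alpha 2 chain of type I collagen, had signals of 794 and 769 against 309 and 294. The mice of each cross were close for this gene, at 781 ± 18.0 and 302 ± 10.2 (SD, n = 2 each), and the difference was 1.37 ± 0.17 or 2.59-fold (limma adjusted p = 0.0402). The groups were separate for both genes, with every AB6F1 array more than 2-fold above the B6AF1 arrays of the same gene. Averaging all probe sets of a gene left neither call, at 1.4 for Col3a1 (limma adjusted p = 0.187) and 0.03 for Col1a2 (limma adjusted p = 0.987). Both calls were lost without B6AF1 replicate 1 (limma adjusted p = 0.159 for Col3a1 and 0.339 for Col1a2), without B6AF1 replicate 2 (0.226 and 0.511) and when the variance ignored its trend with intensity (0.352 and 0.324). Over all alternatives the adjusted p ran from 0.00172 to 0.352 for Col3a1 and from 0.0218 to 0.987 for Col1a2.

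The partner genes of these fibrils did not pass. Col1a1, the alpha 1 chain of type I collagen, had signals of 308 and 467 in AB6F1 against 96.6 and 16.7 in B6AF1, at 3.24 ± 0.78 (limma adjusted p = 0.272). Col5a2, a chain of the type V collagen that nucleates fibrils, had signals of 168 and 264 against 49.5 and 61.1, at 1.94 ± 0.42 (limma adjusted p = 0.221). The B6AF1 means of both lay under the filter's signal, so these differences are not well measured and no fold is given. Leaving out 1 array moved the difference of Col1a1 from 3.24 to 1.97 without B6AF1 replicate 2 and to 4.51 without B6AF1 replicate 1. The groups did not overlap for either gene, but the B6AF1 arrays of Col1a1 differed from each other by more than the AB6F1 arrays did. Col5a1, the other type V chain on the list, overlapped between the crosses, with signals of 220 and 279 against 233 and 160 (0.36 ± 0.29; limma adjusted p = 0.732).

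The start regions of Col3a1 and Col1a2 are shown because these 2 genes passed, and that of Vim because it had the next smallest p among the members. RefSeq (mouse build GRCm38.p6, the C57BL/6J sequence) gave windows for 26 of the 40 genes, 31 windows in all; mice of both crosses carry 1 AJ and 1 B6 copy of each of these 3 autosomal genes. The lines give the 250 bases before the annotated start, 5′ to 3′ on the plus strand, at chr1:45311288-45311537 for Col3a1, chr6:4505368-4505617 for Col1a2 and chr2:13574061-13574310 for Vim. Capitals mark matches on either strand. The motifs searched were the TATA box of many regulated genes, spelled TATAAA, the box whose letters are CCAAT, and the GC box of Sp factors, spelled GGGCGG. The Smad-binding element searched was spelled CAGACA, the site of AP-1 factors was spelled TGANTCA, and that of TEAD factors was spelled GGAATG. The CArG box of muscle genes was searched as well, and no matches in the 3 windows overlap.
Col3a1: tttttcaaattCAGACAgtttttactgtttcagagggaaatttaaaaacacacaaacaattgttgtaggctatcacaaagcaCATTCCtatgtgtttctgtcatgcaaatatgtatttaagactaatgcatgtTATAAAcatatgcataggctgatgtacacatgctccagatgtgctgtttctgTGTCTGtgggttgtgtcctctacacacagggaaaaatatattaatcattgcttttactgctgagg
Col1a2: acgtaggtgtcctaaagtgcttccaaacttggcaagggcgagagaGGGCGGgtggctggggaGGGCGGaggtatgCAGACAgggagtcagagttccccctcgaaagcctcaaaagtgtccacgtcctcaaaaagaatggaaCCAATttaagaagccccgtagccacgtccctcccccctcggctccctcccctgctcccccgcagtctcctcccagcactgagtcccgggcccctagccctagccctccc
Vim: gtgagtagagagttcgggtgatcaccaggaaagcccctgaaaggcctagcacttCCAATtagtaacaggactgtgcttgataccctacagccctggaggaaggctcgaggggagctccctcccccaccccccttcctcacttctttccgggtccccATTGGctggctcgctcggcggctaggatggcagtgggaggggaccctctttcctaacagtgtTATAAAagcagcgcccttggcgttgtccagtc

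Col3a1 and Col1a2 had no motif in common other than the Smad-binding element, and their windows were otherwise unlike. Col3a1 had Smad-binding elements with their first base 239 and 65 bases before the start, a TEAD match at 168 and a TATA box at 117. Col1a2 had GC boxes at 205 and 188, a Smad-binding element at 175 and a CCAAT box at 109. Vim had CCAAT boxes at 196 and 94 and a TATA box at 32. Of all 32851 windows of this length, 17.1% held the Smad-binding element, 33.8% the CCAAT box, 32.7% the GC box, 12.4% the TATA box, 12.6% the TEAD site, 6.75% the AP-1 site and 1.47% the CArG box. Among the 31 windows of the members, 9 held the Smad-binding element, 8 the CCAAT box, 16 the GC box, 3 the TATA box, 5 the TEAD site, 4 the AP-1 site and none the CArG box. A match describes the letters of a window and is not evidence of a bound factor.

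**Figure D1:**
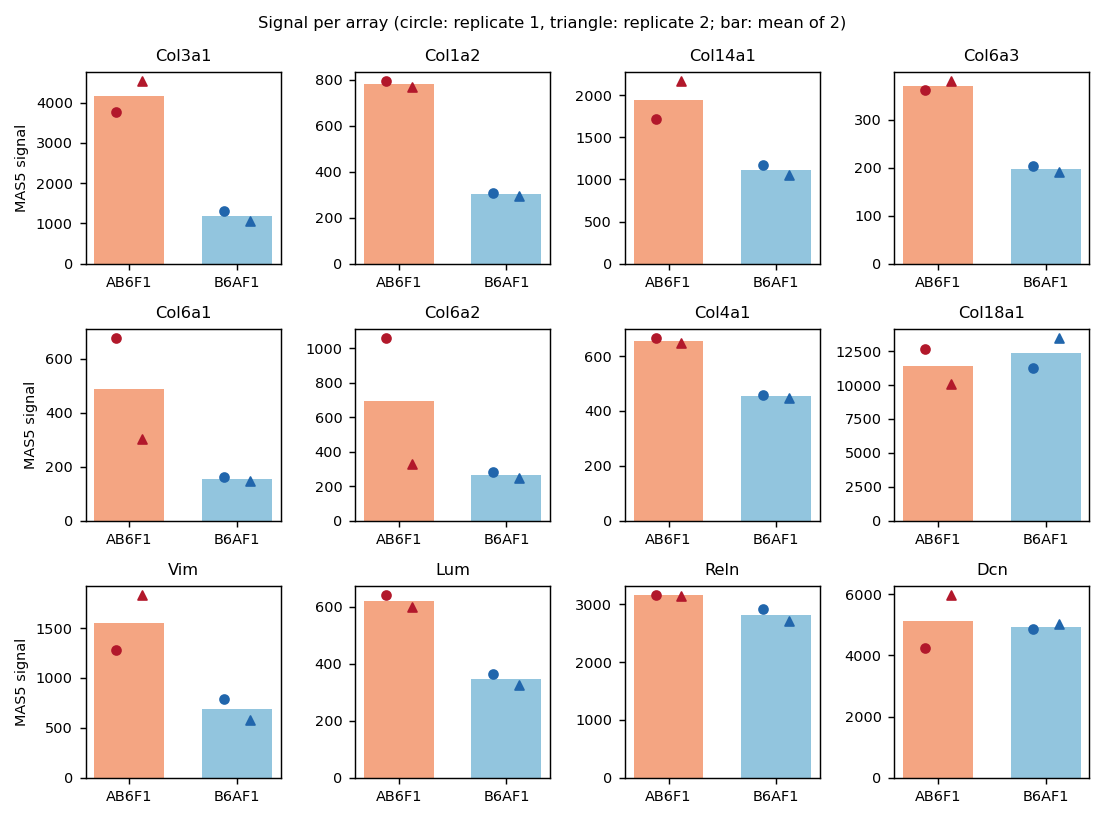
MAS5 signal (vertical axis, linear from 0) of 12 members on each of the 4 arrays; circles are replicate 1, triangles replicate 2, and bars the mean of 2 mice per cross. Col3a1 is at 3773 and 4532 in AB6F1 against 1306 and 1066 in B6AF1, Col6a1 and Col6a2 are highest on AB6F1 replicate 1, and the arrays of Col18a1 and Dcn overlap.

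Type VI collagen, which forms beaded microfilaments around cells, is read here by all 3 chains of its classical form. Col6a1 had signals of 676 and 301 in AB6F1 against 162 and 146 in B6AF1 (1.55 ± 0.38; limma adjusted p = 0.284). Col6a2 had signals of 1060 and 331 against 281.0 and 250.4 (1.16 ± 0.49; limma adjusted p = 0.512). AB6F1 replicate 1 stood far above the other 3 arrays for both genes, while AB6F1 replicate 2 was nearer to B6AF1. Col6a3 had even signals of 362 and 381 against 203 and 191 (0.91 ± 0.22; limma adjusted p = 0.260). Leaving out AB6F1 replicate 1 gave 0.97 for Col6a1, and leaving out replicate 2 gave 2.14, where it passed limma (adjusted p = 0.0119), and Col6a2 passed there too (2.0, adjusted p = 0.00517). Without AB6F1 replicate 1, Col6a2 was at 0.32 (limma adjusted p = 0.759).

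Other collagens lie on fibril surfaces or in basement membranes. Col14a1, which coats fibrils, had signals of 1719 and 2165 in AB6F1 against 1170 and 1047 in B6AF1 (0.80 ± 0.16; limma adjusted p = 0.194); it passed without AB6F1 replicate 1 (0.97, adjusted p = 0.0390). Col15a1, a basement-membrane-associated collagen, had 235 and 200 against 140 and 88.4 (0.96 ± 0.35; adjusted p = 0.451). Col4a1, which with Col4a2 makes the type IV network of basement membranes, was tight within each cross at 665 and 646 against 460 and 447 (0.53 ± 0.16; limma adjusted p = 0.384). Col4a2 had 412 and 479 against 336 and 372, at 0.33 ± 0.19. Arrays of the crosses were separate for these 4 genes, and none passed. Col18a1, the precursor of endostatin, was the collagen on the negative side, with overlapping signals of 12664 and 10075 against 11225 and 13463; its difference of -0.12 had a 95% interval from -0.49 to 0.25. In all, 12 of the 13 collagens were higher, 11 had separate arrays with AB6F1 above, 10 had an unadjusted limma p under 0.05 and 2 passed. Their median was 0.96. The counts of 12, 11 and 10 include Col1a1 and Col5a2, which passed the filter through AB6F1 alone.

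Of 11 other matrix genes tested, 9 were higher, 3 had an unadjusted limma p under 0.05, none passed, and the median was 0.50. The 9 include Mgp and Thbs1, which passed the filter through AB6F1 alone. Lumican (Lum), a proteoglycan that spaces collagen fibrils, had signals of 641 and 600 in AB6F1 against 366 and 326 in B6AF1 (0.85 ± 0.18; limma adjusted p = 0.208). Decorin (Dcn), a proteoglycan of the same family whose gene is the neighbour of Lum on chromosome 10, had 4250 and 5973 against 4870 and 5011. The arrays of Lum were separate and those of Dcn overlapped; the 95% interval was 0.43 to 1.26 for Lum and -0.38 to 0.44 for Dcn, and the difference between these genes was not tested. Biglycan (Bgn), another proteoglycan of that family, had 2533 and 2568 against 1972 and 2139 (0.31 ± 0.12; adjusted p = 0.482).

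Efemp1, the extracellular glycoprotein fibulin 3, had signals of 1227 and 805 in AB6F1 against 543 and 536 in B6AF1 (0.88 ± 0.22; limma adjusted p = 0.287), and passed without AB6F1 replicate 2 (1.19, adjusted p = 0.0172). Sparc, a collagen-binding matricellular protein, had 1220 and 1921 against 1162 and 1014, so that AB6F1 replicate 1 lay close to B6AF1 (0.50 ± 0.22). Fbln1, an elastic-fibre glycoprotein, had 139 and 220 against 130 and 74.6 (0.83 ± 0.43), and Fbln5, a fibulin needed for elastic fibre assembly, overlapped at 236 and 347 against 248 and 283. Thbs1, which can release active TGF-beta from its latent form, had 67.9 and 131 against 55.9 and 45.5 (0.90 ± 0.58). Mgp, an inhibitor of calcification, was uneven within both crosses, at 147 and 67.8 against 125 and 25.4.

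Fibronectin (Fn1) and connective tissue growth factor were on the negative side. Fn1 had overlapping signals of 24135 and 15708 in AB6F1 against 18542 and 21870 in B6AF1; its difference of -0.05 had a 95% interval from -0.54 to 0.44 and took the opposite sign after quantile normalization and cyclic loess. Ctgf (current symbol Ccn2), a matricellular protein and common readout of TGF-beta and YAP activity, had signals of 121 and 125 against 160 and 166. Both AB6F1 arrays of Ctgf lay below both B6AF1 arrays, the only tested member for which they did, at -0.40 ± 0.31 (limma adjusted p = 0.711).

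Among remodelling genes, metalloproteinase inhibitors had separate arrays for 2 of 3 members. Timp2 had signals of 574 and 733 in AB6F1 against 414 and 318 in B6AF1 (0.84 ± 0.22; limma adjusted p = 0.314). Timp3, which binds to the matrix, had 325 and 494 against 237 and 258 (0.69 ± 0.26; adjusted p = 0.466). Arrays of both genes were separate. Timp1, the inhibitor induced in fibrosis, varied more within each cross than between them, at 64.8 and 182 against 129 and 36 (0.67 ± 0.77). Loxl1, an enzyme that cross-links elastin, had 158 and 153 against 104 and 63.0 (0.94 ± 0.41; adjusted p = 0.525). Mmp2, a gelatinase made by stellate cells, overlapped at 199 and 149 against 147 and 152.

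The 3 remodelling genes below the filter were not tested. Lox, the collagen cross-linking lysyl oxidase, had signals of 30.1 and 35.1 in AB6F1 against 51.7 and 54.9 in B6AF1. Mmp12, the macrophage elastase, had 53.9 and 14.5 against 2.5 and 3.7, and its neighbour Mmp13, an interstitial collagenase, had 76.1 and 22.4 against 29.9 and 21.8. AB6F1 replicate 1 was the highest array for both proteinases. None of the 5 tested remodelling genes passed limma, 2 had an unadjusted p under 0.05, and all 5 were higher, with a median of 0.69.

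Differences of the 7 cell markers ran from -0.22 for Des to 1.31 for Tagln. Vimentin (Vim), the intermediate filament of mesenchymal cells, had signals of 1279 and 1831 in AB6F1 against 793 and 581.5 in B6AF1 (1.17 ± 0.23; limma adjusted p = 0.180). Its groups were separate, and it passed without AB6F1 replicate 1 (1.43, adjusted p = 0.0247). Smooth muscle actin (Acta2), the standard marker of activated stellate cells, had 599 and 618 against 427 and 299.6 (0.77 ± 0.22; limma adjusted p = 0.354). Transgelin (Tagln), an actin-binding protein of smooth muscle, had 130 and 181 against 33.7 and 113 (1.31 ± 0.63; adjusted p = 0.557), and leaving out 1 B6AF1 array gave from 0.44 to 2.19. Pdgfrb, the PDGF receptor through which stellate cells proliferate, had 504 and 551 against 430.1 and 305 (0.54 ± 0.22; adjusted p = 0.498). Arrays were separate for these 4 genes, none of which passed over all genes.

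Reelin (Reln), a secreted glycoprotein that stellate cells make in both states, had close signals of 3163 and 3148 in AB6F1 against 2924 and 2706 in B6AF1. Its difference of 0.17 had a 95% interval from -0.11 to 0.45. Pdgfra, the other PDGF receptor, overlapped at 329.5 and 259.6 against 225 and 342 (95% interval from -0.58 to 0.74). Desmin (Des), a muscle-type intermediate filament of rodent stellate cells, was uneven in AB6F1, at 41.3 and 192 against 95 and 114. Of the 7 markers 6 were higher, 3 had an unadjusted limma p under 0.05, none passed, and the median was 0.54.

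**Figure D2:**
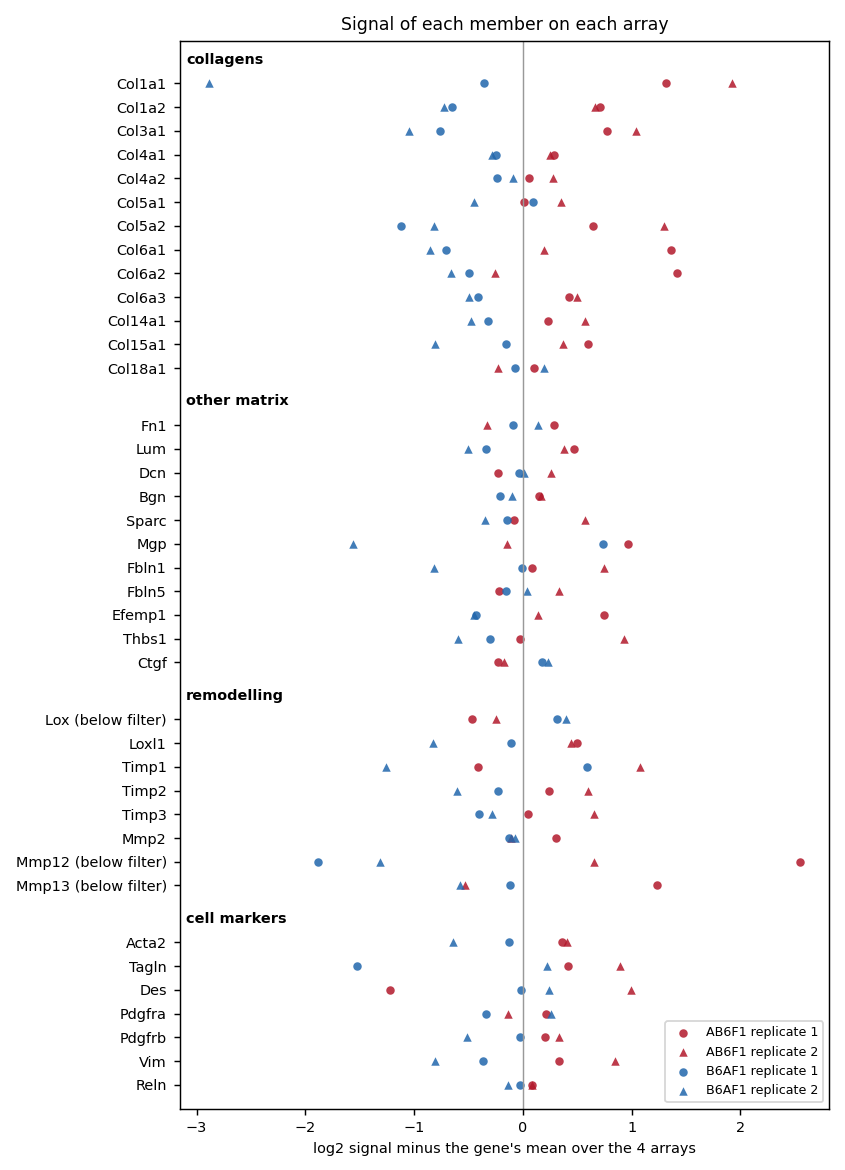
Log2 signal of each of the 39 measured members on each array, minus that gene's mean over the 4 arrays (horizontal axis); red is AB6F1, blue B6AF1, circles replicate 1 and triangles replicate 2. Red symbols lie to the right of both blue symbols for 25 tested members, 11 of them collagens, whereas the symbols of Fn1, Dcn and Pdgfra mix.

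Bgn and Timp1 are the 2 members on the X chromosome, which came from AJ in AB6F1 males and from B6 in B6AF1 males; the other 37 measured members lie on autosomes. Bgn had a small difference that all 3 of its probe sets shared, at 0.31, 0.35 and 0.83, and Timp1 had 1 probe set. Whether strain differences under the probes of these X-linked genes affect their signal was not tested. Several members lie beside each other in the genome, among them Col3a1 and Col5a2 on chromosome 1, Dcn and Lum on chromosome 10, and Mmp13 and Mmp12 on chromosome 9.

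A second reading of the members came from 43 further probe sets, 22 of them above the filter and belonging to 15 genes. Of those 22, 19 were higher, 15 had separate arrays with AB6F1 above, the median was 0.62, and none passed limma when every probe set was tested separately. The counts of 19 and 15 include a probe set of Col1a2 and the other of Col6a2, which passed the filter through AB6F1 alone. Vim had 1.33 ± 0.21 and 1.42 ± 0.23 on its other probe sets (limma adjusted p = 0.0950 and 0.116). Col4a1 had 0.78 and Col14a1 0.71 on theirs. Another probe set of Col3a1, with signals of 123 and 182 against 91.1 and 63.2, gave 0.98. Another probe set of Col1a2, with 152 and 223 against 38.7 and 44.8, gave 2.15. Its B6AF1 signals lay under 60.9, so it passed the filter through AB6F1 alone and its difference is not well measured.

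Other members depended on the probe set. Col1a1 gave only 0.31 on its other probe set, with overlapping signals of 86.2 and 115 against 90.9 and 71.4. Col6a2 gave 3.64 on its other probe set, where AB6F1 replicate 1 was again the highest, at 870 and 161 against 25.0 and 35.9. These B6AF1 signals lay under 60.9, so that difference is not well measured. Mmp2 gave 0.91 on its other probe set, with separate signals of 220 and 205 against 123 and 105. Among probe sets above the filter the 3 lower ones were 1 of Sparc (-0.83), 1 of Timp3 (-0.31) and the other of Col18a1 (-0.23). The remaining probe set of Col1a2 lay below the filter on all arrays, at 2.1 and 1.8 against 16.3 and 26.6, and averaging it with the others brought the gene's difference down to 0.03.

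**Figure D3:**
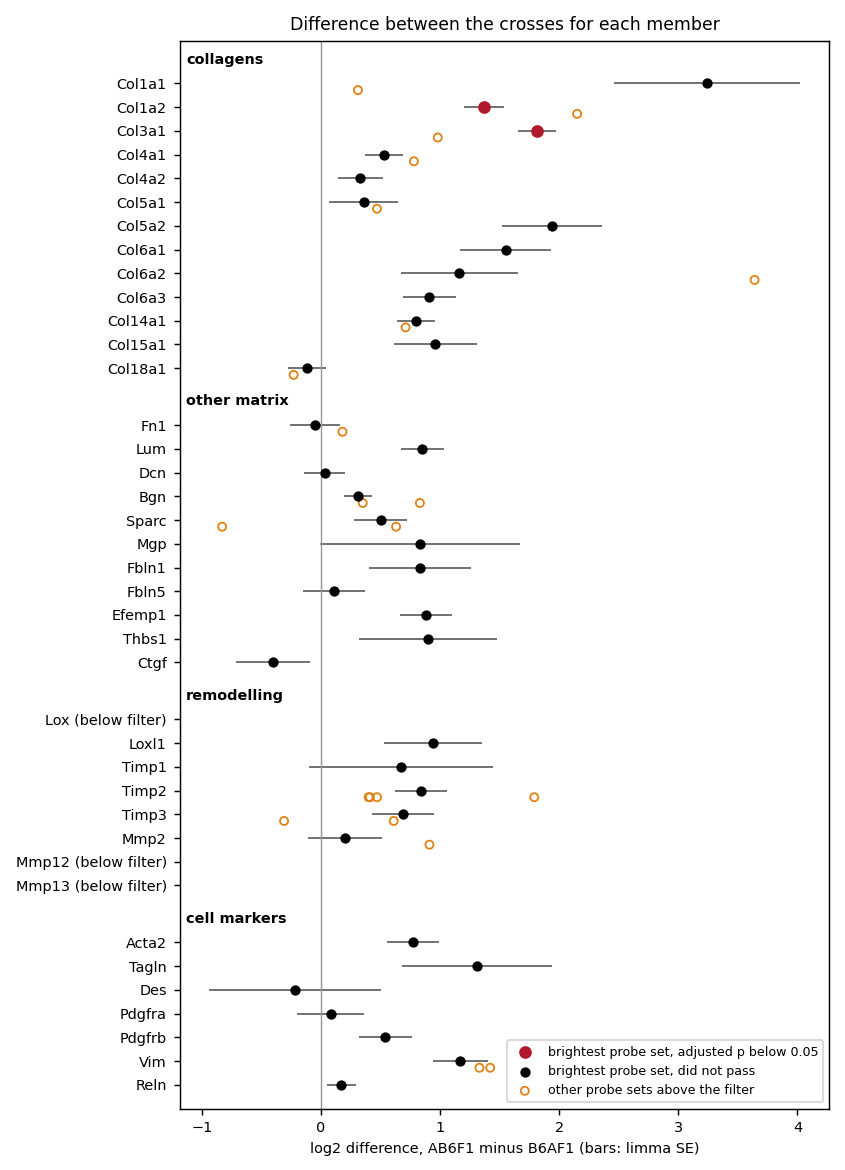
Log2 difference, AB6F1 minus B6AF1 (horizontal axis), of each tested member with limma's standard error; red points passed the adjusted p of 0.05, black points did not, and open orange circles are other probe sets above the filter. Col3a1 (1.81) and Col1a2 (1.37) are the red points, and the other probe sets of Col1a1 (0.31) and Col6a2 (3.64) lie far from the points used.

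Other genes of the matrix pathway, none of them among the 40, passed limma in neither direction in any of 7 lists. The largest median of the 7 lists was that of other glycoproteins and proteoglycans, where 19 of 23 tested genes were higher, 15 had separate arrays with AB6F1 above, 8 were higher and 1 lower at an unadjusted limma p under 0.05, and the median was 0.66. Tnc, Mfap2, Fmod and Matn2 had B6AF1 log2 means under the filter, so they passed it through AB6F1 alone. All of them are in the 19 and the 15, and Tnc is in the 8. Ccdc80, a secreted matrix protein, had signals of 970 and 522 in AB6F1 against 215 and 167 in B6AF1 (1.91 ± 0.32; limma adjusted p = 0.123). Periostin (Postn), a matricellular protein of fibroblasts, had 2614 and 863 against 378 and 259 (2.26 ± 0.48; adjusted p = 0.208), and dermatopontin (Dpt), which binds decorin and collagen, had 353 and 340 against 176 and 142 (1.14 ± 0.24; adjusted p = 0.213). Osteomodulin (Omd), a small leucine-rich proteoglycan, lay the other way, at 170 and 205 against 380 and 414 (-1.09 ± 0.23; adjusted p = 0.208).

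Genes that process collagen had a median of 0.04, with 9 of 17 higher. Pcolce, which enhances removal of the procollagen C-propeptide, had signals of 671 and 696 in AB6F1 against 406 and 393 in B6AF1 (0.77 ± 0.16; limma adjusted p = 0.210). Bmp1, the proteinase that Pcolce assists, lay on the opposite side at 1126 and 1281 against 1843 and 1718 (-0.57 ± 0.14; adjusted p = 0.278). Tgm2, a transglutaminase that cross-links matrix proteins, was highest on AB6F1 replicate 1, at 17579 and 7035 against 4135 and 4340 (1.39 ± 0.37), and the collagen chaperone Serpinh1 overlapped (0.56 ± 0.34). Collagens outside the members had a median of -0.05 over 12 tested genes, 6 of them higher: Col25a1 was at -1.43 ± 0.47, Col4a5 at 1.29 ± 0.54, Col8a1 at 1.29 ± 0.55 and Col9a1 at 1.45 ± 0.77. Signals near or under 60.9 limit Col25a1 in AB6F1, and Col4a5, Col8a1 and Col9a1 in B6AF1.

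The remaining pathway lists had medians between 0.01 and 0.21. Of 25 TGF-beta genes 14 were higher, with a median of 0.03; the receptor Tgfbr2 was at 0.50 ± 0.16 and the latent TGF-beta binding protein Ltbp4 at 0.59 ± 0.24, while the ligand Tgfb1 was at -0.67 ± 0.29 and the Smad repressor Skil at 0.37 ± 0.17. Of 18 PDGF ligands and matrix receptors 14 were higher, with a median of 0.21; the hyaluronan receptor Cd44 was at 1.5 ± 0.36, the syndecan Sdc2 at -0.32 ± 0.11, and the integrin chains Itga8 and Itga6 were at 0.50 ± 0.20 and 0.91 ± 0.47. Of 13 basement membrane genes 8 were higher, with a median of 0.18; the laminin chains Lama3 and Lamb1 were at -1.34 ± 0.34 and 0.97 ± 0.31, nidogen (Nid1) at 0.74 ± 0.20 and Smoc1 at 0.43 ± 0.17. Proteinases and their inhibitors had a median of 0.01 with 9 of 16 higher; cathepsin S (Ctss) was at 1.06 ± 0.33, the membrane proteinase Mmp14 at 0.64 ± 0.21, Timp4 at -1.08 ± 0.61 and Adam10 at 0.35 ± 0.20. The smallest limma adjusted p among these 16 named genes of 4 lists was 0.278.

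Whole liver holds many cell types, and markers of 10 of them were read beside the members; no marker passed limma over all genes and none was listed at 0. Stellate cell markers outside the members had a median of 0.01 over 18 tested genes, 9 of them higher, with summed signals from 20488 to 21278 in AB6F1 and from 17244 to 17415 in B6AF1. Without Steap4, an alternative added after seeing the data, the sums were 13951 and 17075 against 14692 and 14754, and AB6F1 replicate 1 was the lowest array. Within that list Lrat, which makes the retinyl esters that stellate cells store, had signals of 637 and 912 against 441 and 477 (0.73 ± 0.21), the globin Cygb was at 0.76 ± 0.23, the ectonucleotidase Nt5e at 0.58 ± 0.19 and the metalloreductase Steap4 at 1.01 ± 0.20. Further genes of the list were named after their values were seen. The stellate transcription factor Hand2 was at -0.33 ± 0.31 and the receptor Ngfr at -0.16 ± 0.28. The collectin Colec11 was at 0.03 ± 0.14 and the pericyte gene Rgs5 at -0.01 ± 0.17. Nes, Tcf21 and Gata4 were at 0.27 ± 0.39, 0.19 ± 0.17 and 0.28 ± 0.24. Reln, Dcn, Colec11 and Rgs5, which stellate cells express, were above the filter on every array. Some genes of this list, such as Plvap, are also made by other cells.

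Many markers of other matrix-making cells lay below the filter. Smooth muscle markers had 6 of 16 measured genes above the filter and a median of 0.14; the defining genes Myh11 and Cnn1 lay below the filter, Tpm1 was at 0.58 ± 0.23, Myl9 at 0.82 ± 0.49, Notch3 at 0.12 ± 0.26 and Cald1 at -0.09 ± 0.11. The list of portal fibroblasts and the mesothelial cells of the liver surface had a median of 0.71, with 9 of 10 tested genes higher, and summed signals of 1425 and 2076 in AB6F1 against 1066 and 1039 in B6AF1. Besides Dpt, its mesothelial genes Msln, Lrrn4 and Gpm6a were at 1.46 ± 0.51, 1.4 ± 0.48 and 0.97 ± 0.34, and each was highest on AB6F1 replicate 2. Msln is among the 9, but with B6AF1 signals of 47.1 and 53.0 it passed the filter through AB6F1 alone. Its mesothelial genes Upk3b, Upk1b and Wt1 were named after their values were seen. Upk3b was at 0.75 ± 0.51 and highest on AB6F1 replicate 2, whereas Upk1b was at -0.23 ± 0.53 and highest on B6AF1 replicate 1. Wt1 lay below the filter, with signals of 94.6 and 85.6 in AB6F1 against 17.2 and 11.4 in B6AF1. The fibroblast genes Gli1, Fbln2, Mfap4 and Pi16 lay below the filter. Thy1, Eln and Entpd2 of the same list were tested, at 0.16 ± 0.71, 0.67 ± 0.44 and 0.23 ± 0.26.

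Of 23 tested macrophage markers 22 had higher values in AB6F1, 12 higher and 1 lower at an unadjusted limma p under 0.05, with a median of 0.75 and summed signals of 25992 and 17203 in AB6F1 against 11047 and 15122 in B6AF1. The 22 and the 12 include Cx3cr1, which passed the filter through AB6F1 alone, with B6AF1 signals of 38.3 and 60.1. Lyz2 and Lyz1, the lysozymes, were at 1.28 ± 0.26 and 1.4 ± 0.34, the galectin Lgals3 at 1.11 ± 0.27 and the complement chain C1qb at 1.12 ± 0.27. The scavenger receptor Cd163, named after its values were seen as the 1 lower marker, was at -0.85 ± 0.22 (limma adjusted p = 0.299). Of 7 tested neutrophil markers 5 were higher and 2 lower, with a median of 1.28. They summed to 8141 and 1798 against 835 and 886. Most of the AB6F1 sums came from Lcn2, a gene that hepatocytes also make, at 6539 and 1107 against 158 and 497. S100a8 was at 2.68 ± 0.86, S100a9 at 1.90 ± 0.70 and Csf3r at 1.28 ± 0.67. The B6AF1 signals of S100a8 (76.8 and 23.0) and S100a9 (69.8 and 40.6) had log2 means under the filter, so both passed it through AB6F1 alone. The lower ones, Ngp and Mpo, named after their values were seen, were at -0.11 ± 0.43 and -0.28 ± 0.43. AB6F1 replicate 1 was the highest array for both lists. Among the members it was the highest for Col6a1, Col6a2, Efemp1, Mmp12 and Mmp13. It was so too for Col1a2, Col4a1, Col15a1, Lum, Fn1, Mgp, Loxl1, Mmp2 and Reln. The part of macrophages and neutrophils in the members' values was not tested.

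Endothelial markers had a median of 0.04 with 13 of 20 higher, and summed to 9401 and 8344 in AB6F1 against 7538 and 9436 in B6AF1; Lyve1, Cdh5, Robo4 and Stab1 were at 1.18 ± 0.39, 0.69 ± 0.23, 0.33 ± 0.23 and 0.37 ± 0.29. Hepatocyte markers had a median of -0.19 with 13 of 14 lower, and summed to 405517 and 381537 against 414034 and 470025; Cps1, Cyp2e1, Tat and Hpd were at -0.33 ± 0.12, -0.28 ± 0.12, -0.60 ± 0.28 and -0.21 ± 0.12. Cholangiocyte markers had a median of 0.42 over 5 tested genes (sums of 1911 and 1499 against 1479 and 1590), lymphocyte markers 0.15 over 5 (722 and 443 against 532 and 589) and adipocyte markers 0.05 over 3 (54231 and 53944 against 51354 and 58656). None of the 17 pathway and marker lists held a gene past the test.

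**Figure D4:**
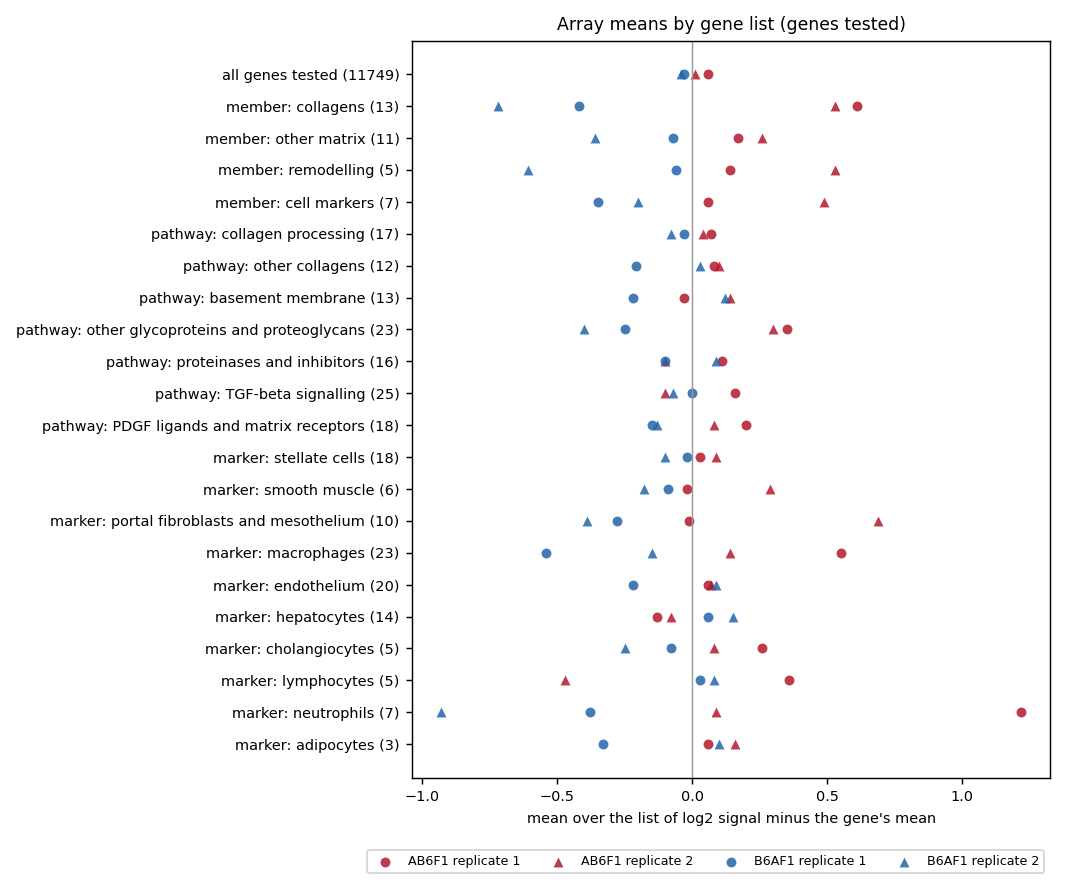
Mean over each list of log2 signal minus the gene's mean over the 4 arrays (horizontal axis), for all genes tested, the 4 groups of members, 7 pathway lists and 10 marker lists; numbers in brackets are genes tested, red is AB6F1, blue B6AF1, circles replicate 1 and triangles replicate 2. Collagens lie at 0.61 and 0.53 in AB6F1 against -0.42 and -0.72 in B6AF1, stellate cell markers stay between -0.10 and 0.09, and neutrophil markers reach 1.22 on AB6F1 replicate 1.

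The AB6F1 livers also differed from each other over the members. AB6F1 replicate 2 was the higher AB6F1 array for 22 of 36 tested members and replicate 1 for 14, and B6AF1 replicate 1 was the higher B6AF1 array for 23. Mean centred values of the collagens were 0.61 and 0.53 in AB6F1 against -0.42 and -0.72 in B6AF1, and those of cell markers were 0.06 and 0.49 against -0.35 and -0.20. Remodelling genes were at 0.14 and 0.53 against -0.06 and -0.61, and other matrix genes at 0.17 and 0.26 against -0.07 and -0.36. Col3a1, Col1a1, Col5a2, Sparc, Timp2 and Vim were among the 22 members with AB6F1 replicate 2 above replicate 1. The same order held for the mesothelial genes Msln, Lrrn4, Gpm6a, Upk3b and Upk1b, but not for Wt1, which lay below the filter. The part of mesothelial cells in the members' values was not tested. The members' median was 0.81 with AB6F1 replicate 1 left out and 0.53 with replicate 2 left out, while 31 of 36 were higher in each case.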

How the data were processed

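Total RNA of 4 livers, prepared with Trizol, was labelled with biotin from 6 ug and read on Affymetrix arrays, per the labels' protocols. The authors deposited 1 linear intensity per probe set, computed with MAS5 according to the submitters' processing notes (version and genome build not given in the sources used here); from the values, each array was scaled to a trimmed mean of 500 after dropping 2% of probe sets at each end. Such scaling hides a change shared by all transcripts. MAS5 subtracts mismatch signal and is noisy for dim probe sets, and detection calls were not used here.

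Of 45101 probe sets 64 were controls, and the platform annotation gave 1 symbol for 34945, several for 932 and none for 9160. Symbols were updated by gene identifier for 34741 through RefSeq's GRCm38.p6 table. Each gene was read by its brightest probe set, and genes with a mean log2 signal below the median of all probe sets were left out without regard to group. Log2 signal with no pseudocount was fitted by limma 3.58.1 in R 4.3.3 (lmFit, eBayes with intensity trend; 4.97 prior and 2 residual degrees of freedom), with two-sided p-values, Benjamini-Hochberg adjustment over 11749 genes and a threshold of 0.05. Intervals are at 95%. The fit was tested on simulated data.

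The members and all lists were chosen with earlier results of these data known, so counts over them are descriptions. Some listed genes passed the filter through 1 cross alone and are in these counts. Every member is named, and of each other list up to 4 non-members of smallest p are named. Any further gene named (Tnc, Mfap2, Fmod, Matn2, Hand2, Ngfr, Colec11, Rgs5, Nes, Tcf21, Gata4, Plvap, Myh11, Cnn1, Upk3b, Upk1b, Wt1, Gli1, Fbln2, Mfap4, Pi16, Thy1, Eln, Entpd2, Cx3cr1, Cd163, Ngp, Mpo) was chosen after its values were seen. Of the pathway and marker genes 8 stand in more than 1 list. Alternatives were other normalizations, 16 added to the signal, other filters, probe sets, variance models and thresholds, the replicate number as a block, and each array left out. Same-numbered arrays did not deviate together (correlation of their deviations -0.027), and the labels' replicate numbers were not taken as pairs.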

Additional observations from a re-analysis of the deposited data

How the results depend on the processing

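Of 17 alternatives, the threshold of 0.1 left the differences unchanged, and each tested member had a value in 14 to 16 of the others. Over these, the sign of each of 27 members was the same as reported. In all, 23 of 552 gene-by-setting values took the opposite sign, all in 9 genes with no call. The numbers of passing genes (25) and members (2) depended most on the arrays: leaving out 1 array gave from 1 to 242 genes and from 0 to 5 members, and the median of the members ran from 0.51 to 0.89, assuming that the lone array left in a cross varies like the others. The counts without AB6F1 replicate 1, AB6F1 replicate 2, B6AF1 replicate 1 and B6AF1 replicate 2 were 79, 242, 1 and 1 genes and 4, 5, 0 and 0 members, with 16, 15, 16 and 11 members at an unadjusted limma p under 0.05. Quantile normalization left 1 member (Col3a1; Col1a2 had an adjusted p of 0.0521), median centring gave 49 genes, and a threshold of 0.1 gave 46. The mean of all probe sets of a gene gave 9 genes and 0 members (13 members at an unadjusted p under 0.05), and limma without the intensity trend gave 0 genes and 0 members (1044 genes and 16 members at an unadjusted p under 0.05). The replicate block gave 62 genes and changed no member's call. With the filter at the 75th percentile 16 of 18 tested members were higher; the count of higher members was added as a result after seeing the data. The cause of these changes was not tested.

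Opposite signs were seen for Fn1 after quantile normalization (0.01), cyclic loess (0.05) and averaging of probe sets (0.07), for Pdgfra after quantile normalization (-0.01), median centring (-0.06), cyclic loess (0.00) and averaging (-0.28), for Dcn after median centring (-0.11) and averaging (-0.73), and for Fbln5 after median centring (-0.03). With 1 array left out, differences ran from -0.29 to 0.04 for Col18a1, -0.36 to 0.26 for Fn1, -0.22 to 0.27 for Dcn, -0.33 to 1.98 for Mgp, -0.17 to 0.39 for Fbln5, -0.25 to 1.59 for Timp1, -0.01 to 0.41 for Mmp2, -1.33 to 0.88 for Des and -0.22 to 0.38 for Pdgfra. Among the members, signals near or under 60.9 limit Col1a1, Col5a2, Mgp, Thbs1, Tagln, Timp1 and Loxl1 in B6AF1. In AB6F1 such signals limit Des, Timp1, Mgp and Thbs1.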
